A study of Mus musculus with 32 samples.

Results

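Sub-polysomal RNA was compared between spheroids in which Dhps was silenced and spheroids in which Grin2d was silenced. The spheroids were formed by 4T1 cells, a mouse mammary carcinoma line, and were kept for 5 days in lung-like medium with 700 μM aspartate. Each pellet was split on a sucrose gradient, and the RNA that carried fewer than 3 ribosomes was sequenced as mRNA. The libraries compared were all those of this fraction in the conditions ASP shDHPS (4 pellets) and ASP shGRIN2D (4 pellets), 8 of the 32 libraries in the experiment. Both groups carried a lentiviral pLKO vector and received aspartate, so that they differed in the gene targeted by the shRNA. Each knockdown was a polyclonal puromycin-selected line, and effects of the line or of the hairpin cannot be told apart from those of the targeted gene. The scramble control with aspartate (ASP shSCR, 4 sub-polysomal libraries) and the polysomal libraries of the same knockdown pellets (8 libraries) served as points of reference.

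DHPS is the enzyme that carries out the first step of hypusination, the conversion of a single lysine of the translation factor eIF5A into hypusine, and DOHH carries out the second step. Hypusinated eIF5A helps ribosomes through stretches of amino acids that join slowly and helps them to terminate. GRIN2D is a subunit of the NMDA receptor, a cation channel opened by glutamate and also by aspartate. In the study this receptor was placed upstream of CREB, of Dohh and thereby of hypusination, so that both shRNAs target a single pathway at different points, and the comparison asks where RNA levels nevertheless differed. RNA outside polysomes includes messages that are free, in small particles or under initiation. A difference in this fraction alone can come from the amount of a message or from its share outside polysomes, and these cannot be told apart without the other fraction.

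The 8 libraries held between 15614647 and 21730239 counts over 17757 genes, of which 127 had no read in any of them. Levels are given as CPM, the counts of a gene relative to the library's total after scaling by TMM factors (trimmed means of the gene-wise ratios between libraries), and differences as log2 of ASP shDHPS over ASP shGRIN2D with the standard error (SE). A gene was called when edgeR's quasi-likelihood test gave an adjusted p (Benjamini-Hochberg over all 17757 genes) under 0.05. Pearson's r of log2 CPM over 9919 genes was 0.968 to 0.98 between pairs of ASP shDHPS libraries, 0.958 to 0.981 between pairs of ASP shGRIN2D libraries and 0.954 to 0.979 between the groups. Correlations between the groups thus overlapped those within them. On the first axis of multidimensional scaling the ASP shDHPS libraries lay at −0.582 to −0.321 and the ASP shGRIN2D libraries at 0.184 to 0.952. Replicate 2 of ASP shGRIN2D stood apart on the second axis, at 0.931 where the other 7 libraries lay between −0.773 and 0.275. Reads from mitochondrially encoded genes made up 5.04% to 9.64% of the ASP shGRIN2D libraries and 5.48% to 7.61% of the ASP shDHPS libraries, ranges that overlapped. All 11 epithelial markers of 4T1 cells were in the table, and their summed level was 2609 ± 248 CPM (SD, n = 4) in ASP shDHPS and 2475 ± 212 CPM (SD, n = 4) in ASP shGRIN2D.

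The targeted genes were read first. Dhps was at 41.8, 40.6, 29.6 and 36.2 CPM in replicates 1 to 4 of ASP shGRIN2D. In ASP shDHPS it was at 9.64, 10.5, 9.60 and 8.42 CPM, and the groups did not overlap. The log2 difference was −1.96 (SE 0.18, adjusted p = 1.77e-08 in edgeR). Grin2d, a gene of few reads here (30 to 114 per library), was at 2.50, 1.78, 2.55 and 2.74 CPM in ASP shGRIN2D. In ASP shDHPS it was at 2.37, 3.78, 5.61 and 5.22 CPM, so that the lowest ASP shDHPS library lay within the range of ASP shGRIN2D. Its log2 difference of 0.82 (SE 0.30) was not called (adjusted p = 0.262 in edgeR, or 0.0911 in a fit with a term for replicate number, called the replicate block below). Against the scramble control, Dhps differed by −2.01 in ASP shDHPS (adjusted p = 3.11e-08) and Grin2d by −0.88 in ASP shGRIN2D (adjusted p = 0.268, edgeR). In the polysomal libraries of the same pellets Grin2d was at 2.06, 1.18, 1.12 and 2.48 CPM in ASP shGRIN2D and at 5.73, 3.63, 6.18 and 2.99 CPM in ASP shDHPS. These groups did not overlap, and the log2 difference of 1.45 was not called (adjusted p = 0.197 in edgeR). The mean of each target was thus lower in the group labelled with its knockdown in both fractions, and the difference was called for Dhps alone.

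The other genes of the pathway were not called. Eif5a, the abundant isoform of the hypusinated factor, differed by −0.03 (SE 0.18), Eif5a2 by −0.05 (SE 0.18) and Dohh by 0.17 (SE 0.17). The differences of Eif5a and Eif5a2 changed sign when libraries were scaled by total counts alone. Of 3 NMDA receptor genes in the table, Grin2d, Grin1 and Grin3b, none was called, and Grin1 and Grin3b had means of 0.0951 and 0.0426 CPM. Of 18 genes of polyamine metabolism, which supplies the spermidine that DHPS uses, none rose or fell in edgeR (1 higher and 2 lower at an unadjusted p under 0.05, and 1 in each direction called by DESeq2), with a median log2 difference of −0.01 over the list. With the replicate block 3 of the 18 were called (2.31% of all genes higher and 2.22% lower). Azin1, an antizyme inhibitor, was higher (0.49), and its relative Azin2 (−0.64) and the antizyme gene Oaz2 (−0.42) were lower.

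Over all genes, 165 of 17757 were called (0.929%), 65 higher (0.366%) and 100 lower (0.563%) in ASP shDHPS. The median log2 difference over all genes was −0.00348. Of the 165 calls, 155 did not overlap between the groups, while 6.58% of all genes did not overlap (3.6% higher and 2.98% lower), and 77 had a log2 difference of at least 1 in size. Of the 65 higher genes 59 were protein coding (90.8%) and of the 100 lower genes 95 (95.0%), beside 75.5% of all genes tested. These shares are not matched for level: 12024 of the 17757 genes reached a mean of 1 CPM, while 5 of the calls lay under it. With the replicate block, 806 genes (4.54%) were called, 411 higher (2.31%) and 395 lower (2.22%), and these included all 165 with their direction. Scaling by total counts alone gave 159 calls but another balance, 86 higher and 73 lower. DESeq2 called 143 of all genes higher and 175 lower, and its calls in the gene lists stand beside these counts. Without ASP shDHPS replicate 3 there were 103 calls, and without ASP shGRIN2D replicate 2 there were 196. Of the 165 genes, 70 (27 higher and 43 lower) were called in each of the 8 fits with 1 library left out, 95 were lost in at least 1 of them and 2 in all.

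**Figure D1:**
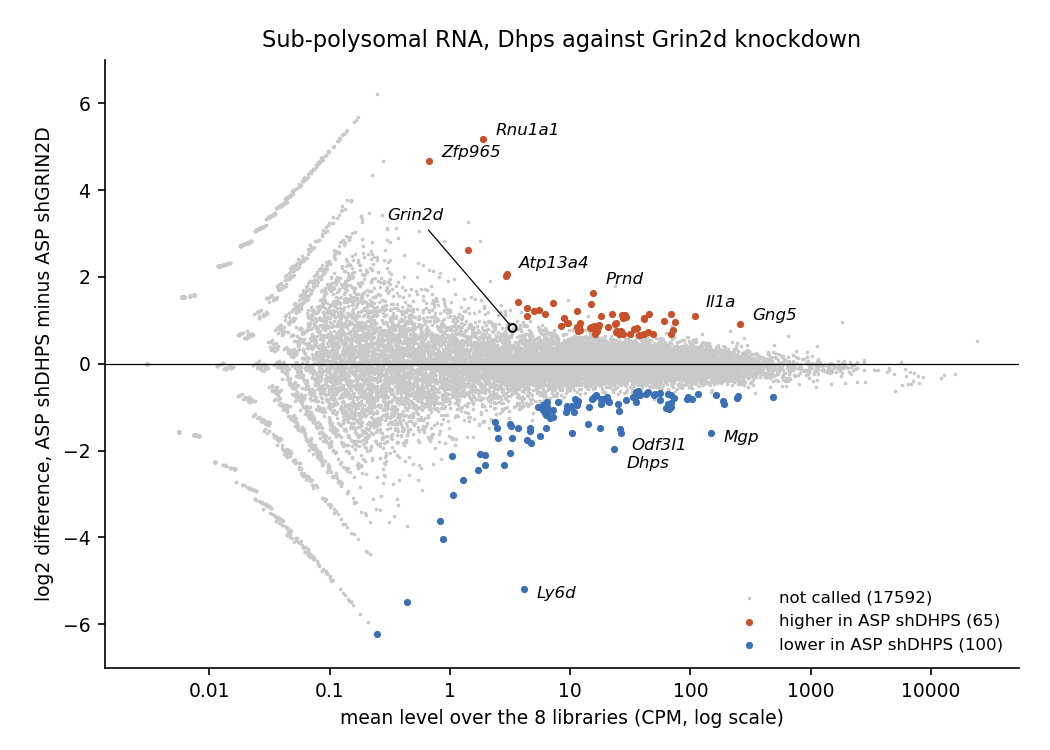
Each point is a gene, with its mean level over the 8 sub-polysomal libraries on the x axis (CPM, log scale) and the log2 difference, ASP shDHPS minus ASP shGRIN2D, on the y axis. The 65 genes called higher and the 100 called lower are coloured, Grin2d is circled, and the largest called differences lie among genes of few reads.

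Among the genes that fell furthest at a mean of at least 5 CPM were Mgp, Odf3l1, Itgb3, Ace and Ramp1. Mgp, the matrix Gla protein that restrains calcification, was at 309, 221, 171 and 197 CPM in ASP shGRIN2D. In ASP shDHPS it was at 77.3, 79.3, 65.1 and 73.3 CPM, and its log2 difference was −1.61 (SE 0.18, adjusted p = 1.42e-06 in edgeR). Every ASP shDHPS library was below every ASP shGRIN2D library, and the level varied less among the former. Odf3l1, related by name to outer dense fibre proteins of sperm tails, was at 47.4, 34.8, 36.1 and 41.3 CPM in ASP shGRIN2D. It was at 12.9, 12, 14 and 13.8 CPM in ASP shDHPS (log2 difference −1.60, SE 0.17, adjusted p = 6.3e-07, edgeR). The groups were far apart compared with the spread within either.

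Itgb3, the integrin β3 subunit that pairs with αv in a receptor for vitronectin and fibronectin, was at 15.7, 12.9, 19.3 and 14.8 CPM in ASP shGRIN2D and at 5.89, 3.89, 5.91 and 5.04 CPM in ASP shDHPS. Its log2 difference was −1.59 (SE 0.21, adjusted p = 2.98e-05 in edgeR). Ace, the angiotensin-converting enzyme, was at 45.0, 20.2, 37.6 and 49.1 CPM against 10.7, 11.2, 15.2 and 16.8 CPM (log2 difference −1.50). The low Ace value of ASP shGRIN2D replicate 2 was still above all ASP shDHPS values. Ramp1, which turns the calcitonin-like receptor into a receptor for CGRP, fell by 1.49 on the log2 scale, and Ncmap, a myelin protein, fell by 1.67. Tns1, a tensin that links integrins to actin, fell by 1.48, and Chdh, the mitochondrial choline dehydrogenase, fell by 1.23. Galnt15, an enzyme of mucin-type O-glycosylation, fell by 1.18. The Galnt15 call was lost without ASP shDHPS replicate 2 (adjusted p = 0.0619).

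Among genes of higher level, Phospho1, a phosphatase of mineralizing cells, fell from between 212 and 294 CPM to between 119 and 144 CPM (log2 difference −0.92). Mal, a raft protein of apical transport, fell by 1.03 on the log2 scale, Lrrc75b by 1.03 and the orphan receptor gene Gprc5b by 0.94. The calcium-binding protein genes S100a14 and S100a16, which lie next to each other on chromosome 3, fell by 1.09 and by 1.01. S100a14 was at 44.0, 40.8, 25.6 and 28.9 CPM in ASP shGRIN2D and at 16.1, 22.1, 15 and 12.3 CPM in ASP shDHPS. The groups did not overlap for either gene.

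Of the 65 genes that rose, Prnd, Agps, Il1a and Ccne1 kept their calls with each library left out. Prnd, which encodes the prion-like protein doppel, was at 6.87, 8.23, 6.93 and 8.30 CPM in ASP shGRIN2D and at 26.9, 22.8, 20.3 and 24.2 CPM in ASP shDHPS. Its log2 difference of 1.63 (SE 0.18, adjusted p = 1.42e-06 in edgeR) was the largest rise among genes with a mean of at least 5 CPM. The lowest ASP shDHPS library was above every ASP shGRIN2D library. Il1a, the alarmin cytokine interleukin-1α, was at 64.4, 87.8, 61.0 and 64.7 CPM against 149, 155, 134 and 160 CPM in ASP shDHPS (log2 difference 1.11, SE 0.17). Its ASP shGRIN2D value was highest in replicate 2 and still below all of ASP shDHPS.

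Agps, an enzyme of ether lipid synthesis in peroxisomes, was at 36.1, 44.1, 44.5 and 45.7 CPM in ASP shGRIN2D. It was at 99.5, 96.1, 84.6 and 99.0 CPM in ASP shDHPS (log2 difference 1.15, SE 0.16, adjusted p = 7.52e-05 in edgeR). Ccne1, the cyclin E1 that drives entry into S phase, was at 18.5, 17.8, 16.4 and 15.5 CPM against 39.3, 43.4, 33 and 33.1 CPM. Its log2 difference was 1.12 (SE 0.17, adjusted p = 0.000193 in edgeR). Neither gene overlapped between the groups.

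Other genes that rose were Ccng1, cyclin G1, a target of p53 (1.15), the cadherin gene Cdh17 (1.40) and Ankrd1, a muscle ankyrin repeat protein and target of YAP (1.22). Mirt1, a long noncoding RNA, rose by 1.13 and Ccp110, a centriole cap protein gene, by 1.15. Gng5, a G protein γ subunit, rose by 0.91, Pi4k2b, a phosphatidylinositol 4-kinase, by 0.95 and Chmp5, a subunit of the ESCRT-III complex, by 0.98. Of the rises named here or just above, 3 lost their calls with 1 library left out. That of Arhgap29 (1.25), a GTPase-activating protein, was lost without ASP shDHPS replicate 1 (adjusted p = 0.121), where it was highest, or ASP shGRIN2D replicate 3 (0.053). That of Scin (1.21), which severs actin filaments, was lost without ASP shDHPS replicate 3 (0.107) or ASP shGRIN2D replicate 1 (0.074). That of Bud31 (0.78), a splicing factor, was lost without ASP shGRIN2D replicate 3 (0.0595).

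**Figure D2:**
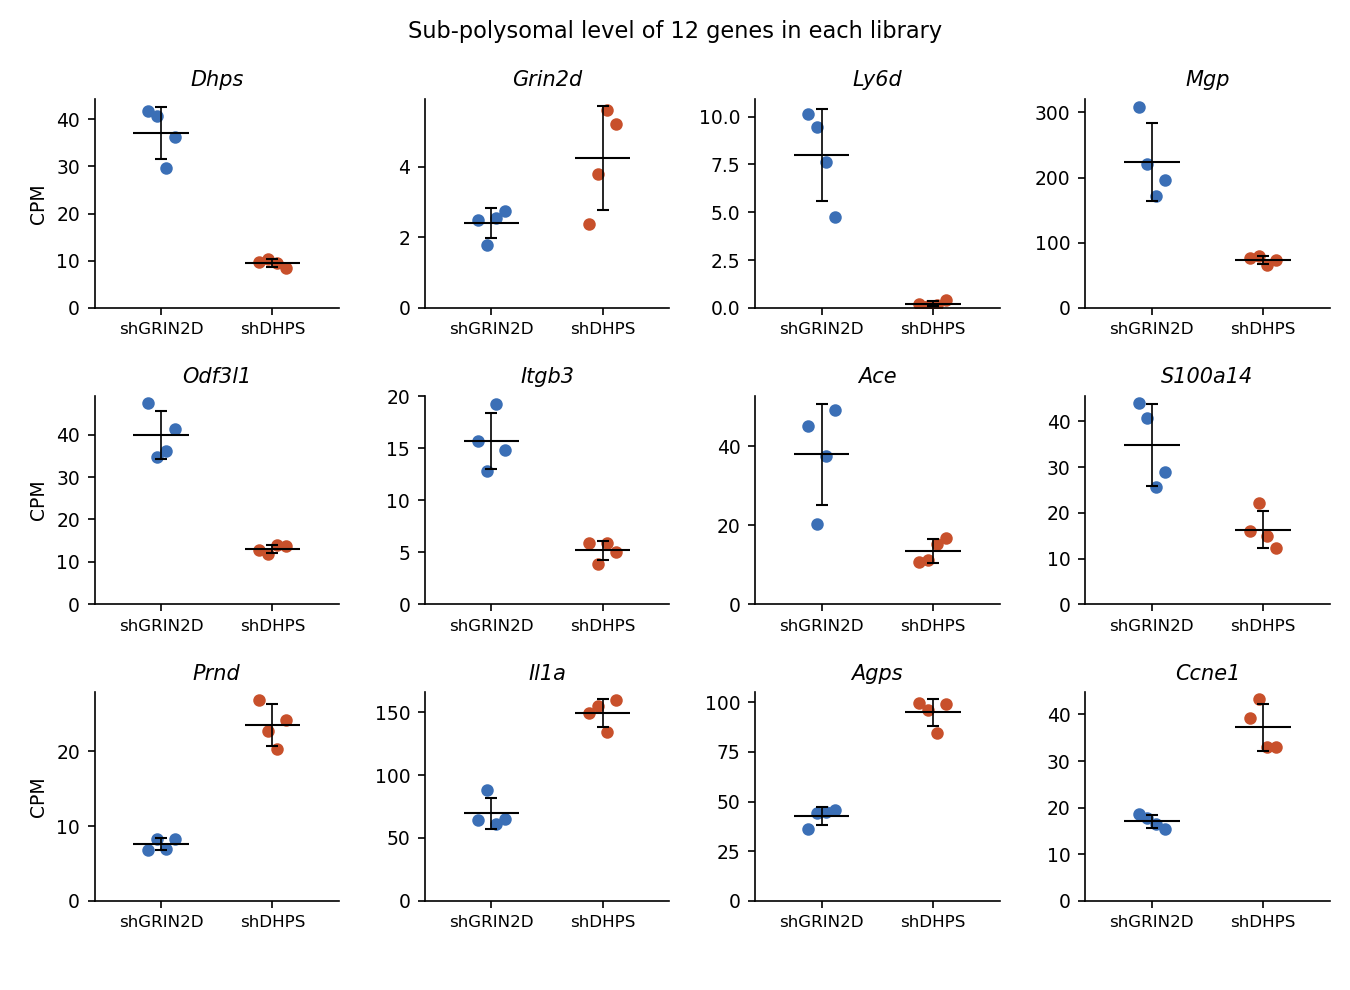
Sub-polysomal level (CPM, axes from 0) of 12 genes in each of the 4 ASP shGRIN2D and the 4 ASP shDHPS libraries, with the mean and SD. The groups overlap for Grin2d alone among these 12 genes.

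Several of the calls at very low levels rested on few reads or on 1 or 2 libraries and were chosen for mention after their values were seen. Rnu1a1, a U1 small nuclear RNA gene with near-identical copies, had 174 and 105 reads in ASP shDHPS replicates 3 and 4, 7 in ASP shGRIN2D replicate 1 and none in the other 5 libraries. Zfp965, a zinc finger gene with close relatives, had 64, 25, 0 and 12 reads in ASP shDHPS and 0, 0, 3 and 0 in ASP shGRIN2D. The histone gene H4c17 had 19, 0, 7 and 11 reads in ASP shGRIN2D and none in ASP shDHPS. Reads of such genes can be divided among copies by the quantification, and their values are uncertain. In all, 33 of the 165 calls had a mean under 5 CPM and 5 had a mean under 1 CPM.

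Ly6d had the largest fall of the called genes with more than 35 reads in a library, and neighbours on chromosome 15 were also lower in ASP shDHPS than in ASP shGRIN2D. Without that limit on reads, H4c17 (−6.22) and 1700024B05Rik (−5.48) had larger falls. The call of 1700024B05Rik was kept in all 8 fits with 1 library left out. The Ly6 genes encode small GPI-anchored or secreted proteins of a shared fold, and Ly6a (Sca-1), Ly6d and Ly6e are used as markers of epithelial progenitor and tumor cells. This group was picked out after its values were seen and was not tested as a group. Ly6d had 227, 160, 117 and 76 reads in ASP shGRIN2D and 4, 2, 3 and 7 in ASP shDHPS. These reads were 10.1, 9.48, 7.65 and 4.74 CPM against 0.190, 0.111, 0.148 and 0.415 CPM, a log2 difference of −5.20 (SE 0.39, adjusted p = 2.33e-10 in edgeR). The transcript was thus nearly lost from the ASP shDHPS libraries, while every ASP shGRIN2D library held it.

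In their order along the chromosome, Slurp1 (−2.12), Lynx1 (−2.33), Ly6d (−5.20), Ly6e (−0.80), Ly6a (−1.38), Ly6c1 (−2.34), the long noncoding Gm28502 (−4.04) and Ly6g2 (−1.12) were all called lower. Ly6a was at 22.8, 20.6, 15.8 and 21.3 CPM in ASP shGRIN2D and at 6.46, 7.45, 7.78 and 9.30 CPM in ASP shDHPS. Lynx1, whose product modulates nicotinic receptors, was at 6.02, 5.04, 4.45 and 3.43 CPM against 0.332, 1.22, 1.33 and 0.889 CPM. No ASP shDHPS library reached the ASP shGRIN2D range for either gene. The remaining members, Lypd2, Ly6c2 and Ly6f, had at most 23 reads in any library, and were not called. Ly6c1 and Ly6c2 are close copies, so reads may have been divided between them.

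The genes next to the cluster were not called. On one side, Jrk differed by 0.51 and Them6 by −0.35, and on the other Zfp41 by 0.32 and Top1mt by −0.09. Mafa, farther on, fell by 0.86. Some calls in the cluster were sensitive to single libraries. The Ly6e call was lost without ASP shDHPS replicate 1 (adjusted p = 0.0572) or 2 (0.0919) or ASP shGRIN2D replicate 1 (0.0781) or 4 (0.0572). The Slurp1 call, with 3 to 52 reads per library, was kept only without ASP shDHPS replicate 2 or ASP shGRIN2D replicate 2 or 3. Over the other 5 left-out libraries its adjusted p ran from 0.0605 to 0.165. With this cluster included, 15 of the 702 genes of chromosome 15 were called lower (2.14%), beside 0.563% of all genes. Chromosome 2 had 16 lower of 1319 (1.21%).

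**Figure D3:**
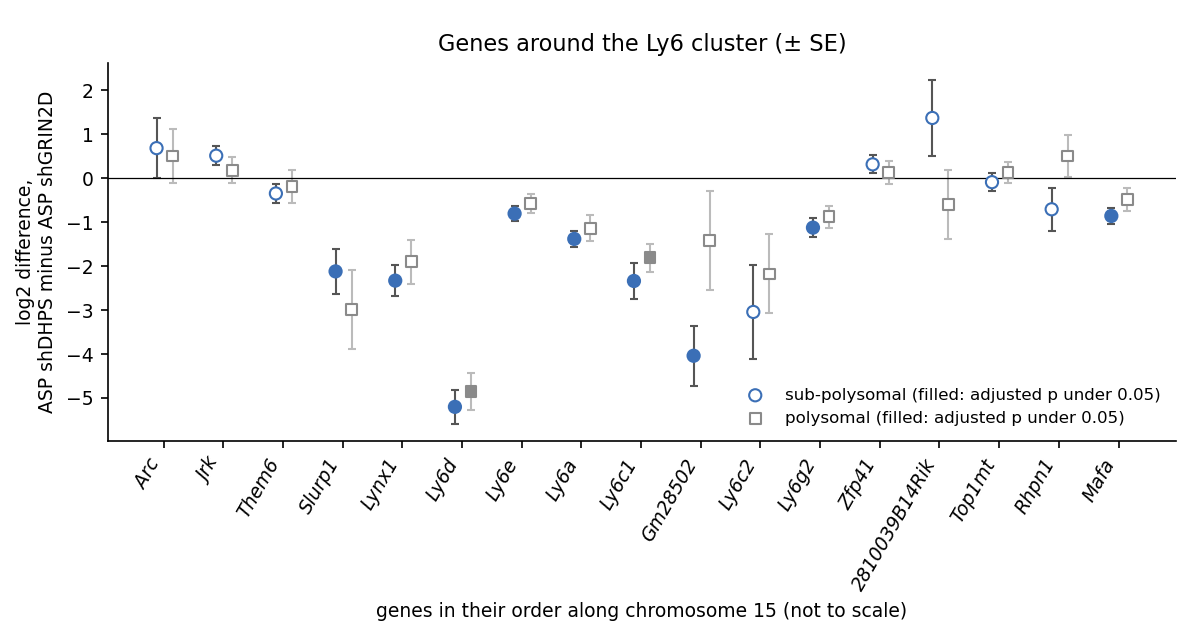
Log2 difference, ASP shDHPS minus ASP shGRIN2D, with its SE, of genes around the Ly6 cluster in their order along chromosome 15 (not to scale; genes with under 20 reads in every library are left out). Circles are sub-polysomal and squares polysomal RNA, filled where called. The run from Slurp1 to Ly6g2 lies below 0 in both fractions and Jrk and Zfp41 above it.

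Adjacent genes were called together in 11 pairs, all of them in a single direction, 2 pairs higher and 9 lower. The Ly6 cluster gave 5 of the pairs. With 1 library left out 6 to 10 of the pairs stayed, and 5 pairs, all lower, stayed in each of the 8 fits. These 5 were 3 pairs of the Ly6 cluster, S100a14 with S100a16 and Odf3l1 with Cspg4. Both higher pairs, Dll4 with Chac1 and Tlr3 with Sorbs2, stayed in 3 of the 8 fits. The pairs outside the cluster were Odf3l1 with Cspg4, S100a14 with S100a16, Col5a1 with Olfm1, Sulf2 with Prex1, Dll4 with Chac1 and Tlr3 with Sorbs2. Of these, Cspg4 and Dll4 were picked out after their values were seen. Cspg4, the proteoglycan NG2, was at 3.75, 4.44, 3.66 and 3.56 CPM in ASP shGRIN2D and at 0.807, 1.39, 1.48 and 1.01 CPM in ASP shDHPS (log2 difference −1.71, SE 0.32). Dll4, a Notch ligand, rose by 1.43.

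Promoter sequences are shown for genes that fell together with a neighbour (Ly6c1 of the Ly6 cluster, and Odf3l1 with Cspg4) and for Il1a as the abundant cytokine that rose. Each is the 250 bases before the start, 5′ to 3′ on the strand of the gene, from RefSeq on GRCm38.p6, with motif matches in capitals. The regions are chr15:75048838-75049087 (minus strand), chr9:56853815-56854064 (minus strand), chr9:56864854-56865103 (plus strand) and chr2:129309973-129310222 (minus strand).
Ly6c1: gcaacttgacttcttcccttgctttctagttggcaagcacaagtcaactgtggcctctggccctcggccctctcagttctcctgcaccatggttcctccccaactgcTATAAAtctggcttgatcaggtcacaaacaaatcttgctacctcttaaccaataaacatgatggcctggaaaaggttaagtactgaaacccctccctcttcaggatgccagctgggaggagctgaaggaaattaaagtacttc
Odf3l1: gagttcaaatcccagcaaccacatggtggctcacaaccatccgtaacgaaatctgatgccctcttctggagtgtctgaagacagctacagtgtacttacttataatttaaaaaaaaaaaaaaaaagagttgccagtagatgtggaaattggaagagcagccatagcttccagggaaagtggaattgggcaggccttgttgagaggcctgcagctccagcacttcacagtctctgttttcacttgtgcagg
Cspg4: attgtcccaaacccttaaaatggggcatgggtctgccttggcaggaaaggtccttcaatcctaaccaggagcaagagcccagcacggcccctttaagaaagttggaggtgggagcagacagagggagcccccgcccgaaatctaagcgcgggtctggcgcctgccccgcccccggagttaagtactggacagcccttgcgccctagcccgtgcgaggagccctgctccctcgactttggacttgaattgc
Il1a: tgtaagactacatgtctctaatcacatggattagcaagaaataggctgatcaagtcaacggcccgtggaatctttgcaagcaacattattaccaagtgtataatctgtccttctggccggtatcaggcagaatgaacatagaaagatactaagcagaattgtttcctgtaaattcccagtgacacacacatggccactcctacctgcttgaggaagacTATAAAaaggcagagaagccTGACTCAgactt

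The motifs searched were TATAAA on the strand of the gene and, on both strands, TGACGTCA (the cyclic AMP response element bound by CREB), its core TGACG (contained in the full element), TGANTCA (AP-1), the interferon response core (GAAA, any 2 bases, GAAA) and GGCGGGAA (E2F). Il1a had TATAAA from 32 and an AP-1 match from 12 bases before the start, and Ly6c1 had TATAAA from 143 bases before it. Odf3l1 and Cspg4, which are transcribed away from each other, held none of the 6 motifs in this window. Promoters were matched for 45 of the 65 higher and 66 of the 100 lower genes, and for 11444 of all genes tested. The full CREB element was in 2.22% of the higher and 3.03% of the lower promoters, beside 2.68% of all, and its core in 17.8% and 24.2%, beside 26.3%. TATAAA was in 6.67% and 10.6%, beside 4.45%, and the AP-1 motif in 8.89% and 4.55%, beside 5.12%. The E2F motif was in 6.67% and 0%, beside 3.43%, and the interferon motif in 0% and 4.55%, beside 2.66%. The median number of CpG dinucleotides per promoter was 14 for the higher, 8.5 for the lower and 15 for all genes. These are descriptions of 250 bases each, with no test.

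Because the study placed CREB between the receptor and Dohh, genes known to respond to CREB were read as a list. Of 18 CREB immediate targets, 1 fell (0.563% of all genes) and none rose (0.366% of all genes). Bdnf, the neurotrophin, was at 15.8, 14.7, 13.8 and 15.3 CPM in ASP shGRIN2D and at 8.12, 9.12, 6.84 and 7.05 CPM in ASP shDHPS (log2 difference −0.94, SE 0.19). With the replicate block Rgs2 (−0.77) and Pde4d (−0.83) were also called lower (2.22% of all genes), and Pde4b (0.86) higher (2.31% of all genes). DESeq2 called 2 targets lower (175 of all genes). At an unadjusted p under 0.05, 3 targets were higher and 3 lower (5.45% and 5.2% of all genes). Junb, the most abundant target, differed by 0.02, and the list's median was 0.04 (−0.07 without ASP shGRIN2D replicate 2). Of 13 CREB factors and coactivators none was called, and Crtc2, the most abundant, differed by −0.17.

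Of the translation machinery, no gene was called in edgeR without the replicate block (0.929% of all genes were called). None of 82 cytosolic ribosomal protein genes was called, at an unadjusted p under 0.05 either, and their median difference was −0.10. The sub-polysomal median became 0.03 without ASP shGRIN2D replicate 2, and the median in polysomal RNA was 0.23. None of 62 initiation factor genes and none of 12 elongation factor genes was called, with medians of 0.03 and −0.08. With the block 2 initiation factor genes were called higher and 1 lower (2.31% and 2.22% of all genes), and DESeq2 called 2 higher. Eef1a1, the main elongation factor that brings tRNA to the ribosome, differed by −0.26 (SE 0.20). Aminoacyl-tRNA synthetases, which charge tRNAs, had a median of 0.24 over 20 genes, and none rose or fell, while 5 had an unadjusted p under 0.05 in the higher direction (967 of all genes, 5.45%). Without ASP shGRIN2D replicate 2, 2 of the 20 and 1107 of all genes were higher at that threshold. With the block Nars, Wars, Rars and Aars were called higher (2.31% of all genes).

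Of 30 genes of the integrated stress response, 1 rose (0.366% of all genes). Chac1, which degrades glutathione, was at 19, 15.6, 22.8 and 14.3 CPM in ASP shGRIN2D and at 29.3, 30.0, 31.6 and 28.2 CPM in ASP shDHPS (log2 difference 0.73, SE 0.17, adjusted p = 0.0285 in edgeR). That call was kept without ASP shGRIN2D replicate 1 or 3 or ASP shDHPS replicate 4, while without any of the other 5 its adjusted p was 0.0525 to 0.124. With the block 6 members were called higher (2.31% of all genes), Chac1, Atf3, Slc1a5, Asns, Mthfd2 and Shmt2. At an unadjusted p under 0.05, 9 members were higher and 1 lower (5.45% and 5.2% of all genes). Atf4, the central factor of this response, differed by 0.015 (SE 0.17), and the median of the list was 0.23. Among 16 cytosolic heat shock chaperones Hspa1b, an inducible HSP70, fell by 0.89 (0.563% of all genes were called lower). Its near-identical copy Hspa1a can share its reads. With the block 3 of the 16 were called higher and 2 lower (2.31% and 2.22% of all genes). At an unadjusted p under 0.05, 3 were higher and 3 lower (5.45% and 5.2% of all genes).

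The genes that the study placed downstream of hypusination were those of TGF-β signaling and collagen. For TGF-β it compared polysomal to sub-polysomal ratios of the scramble control with aspartate against each knockdown and against no aspartate. It also measured phosphorylated SMAD3 and collagen. The levels given here compare the knockdowns with each other and do not test that claim. Calls of these genes in edgeR without the block stand beside shares of 0.366% higher and 0.563% lower over all genes. With the block these shares were 2.31% and 2.22%. None of 21 TGF-β ligands, latency proteins and receptors was called, and 3 had an unadjusted p under 0.05, all lower (5.2% of all genes). With total counts alone 1 was higher and 1 lower at that threshold. Tgfb3, a ligand, differed by −0.44 and was called with the block alone. Ltbp3, the most abundant, differed by 0.09. With all 8 libraries and TMM scaling, edgeR without the block called none of 15 SMADs and SMAD repressors. None of 14 TGF-β response genes was called in that fit either. Without ASP shGRIN2D replicate 2, 1 gene of each of these lists was called lower, and the SMAD list's median moved from −0.14 to −0.27. At an unadjusted p under 0.05, 5 of the 15 were then lower, beside 1 with all 8 libraries. With total counts alone 1 response gene was called higher. With the block 1 of the SMAD list was called lower, and of the 14 response genes 2 were called higher and 3 lower. DESeq2 called 1 of the SMAD list lower and 1 response gene in each direction. Fn1, fibronectin, differed by −0.67 without overlap (adjusted p = 0.0641 in edgeR, and 0.000158 with the replicate block), while Ccn1, a matricellular protein, differed by 0.74 and was called higher with the block.

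Of 26 collagen chain genes, 1 fell. Col5a1, a fibrillar collagen V chain, was at 20.3, 18.4, 31.8 and 23.7 CPM in ASP shGRIN2D and at 10.1, 12.7, 13.7 and 13.2 CPM in ASP shDHPS. Its log2 difference was −0.93 (SE 0.19), and the call was lost without ASP shGRIN2D replicate 3 (adjusted p = 0.0559), the highest library. Col4a1, a basement membrane collagen and the most abundant chain, differed by 0.27, and the median of the list was 0.06 (−0.01 without ASP shGRIN2D replicate 2). With the block Col6a1 (−0.48) and Col6a2 (−1.25) of collagen VI were lower too and Col8a1 (0.75) higher. None of 21 collagen folding and crosslinking genes was called, 1 of 19 integrin subunits fell (Itgb3), and 1 of 26 matrix proteases and inhibitors rose. With the block 1 collagen folding gene was called lower, 1 integrin subunit higher beside Itgb3, and 2 of the proteases and inhibitors higher. DESeq2 called 1 collagen chain higher and 2 lower, 1 collagen folding gene lower and 1 integrin subunit higher beside Itgb3. The integrin list's median of 0.06 became −0.04 without ASP shGRIN2D replicate 2. In that fit, and with total counts alone, 1 collagen chain and 1 integrin subunit were called higher. The protease that rose was Mmp10, stromelysin 2 (0.76), which was called without ASP shGRIN2D replicate 2 or ASP shDHPS replicate 2 but in none of the other 6 fits with 1 library left out (adjusted p 0.0539 to 0.168).

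Of the genes of the 2 cell cycle lists, a single one rose (0.366% of all genes) and none fell (0.563%). All 28 genes of the G2/M and mitosis list had positive differences (8680 of all 17757 genes) with a median of 0.30, and none was called. Summed over the list, the level was 1937, 1984, 1908 and 1940 CPM in ASP shGRIN2D and 2380, 2135, 2518 and 2508 CPM in ASP shDHPS. The sums did not overlap, and they varied less in ASP shGRIN2D. With the block 7 were called higher (2.31% of all genes), among them Cdk1 (0.57), Prc1 (0.58) and Anln (0.54). Of 34 DNA replication genes 1 rose, Ccne1, and 13 had an unadjusted p under 0.05, all higher (5.45% of all genes), with a median of 0.28. DESeq2 called 3 of them higher (143 of all genes). Mcm3, a subunit of the replicative helicase, differed by 0.61, and 7 members were called higher with the block (2.31% of all genes). Pcna, the most abundant member, differed by 0.10 (SE 0.18).

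None of 23 genes of nucleotide and one-carbon synthesis was called (1 higher in DESeq2), 10 had an unadjusted p under 0.05, all higher (5.45% of all genes), and the median was 0.28. With the block 7 were called higher (2.31% of all genes), including Rrm2 of ribonucleotide reductase (0.50), the pyrimidine enzyme Cad (0.51) and Ctps (0.47), which makes CTP. Impdh2, the most abundant, differed by −0.01. In the Hallmark set of E2F targets, which overlaps these lists, 3 of 199 genes rose (0.366% of all genes) and none fell (0.563%), with a median of 0.17. With the block 28 were called higher (2.31% of all genes) and none lower. Among the 199 genes 40 had an unadjusted p under 0.05 in the higher direction (5.45% of all genes) and 1 in the lower direction (5.2% of all genes).

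**Figure D4:**
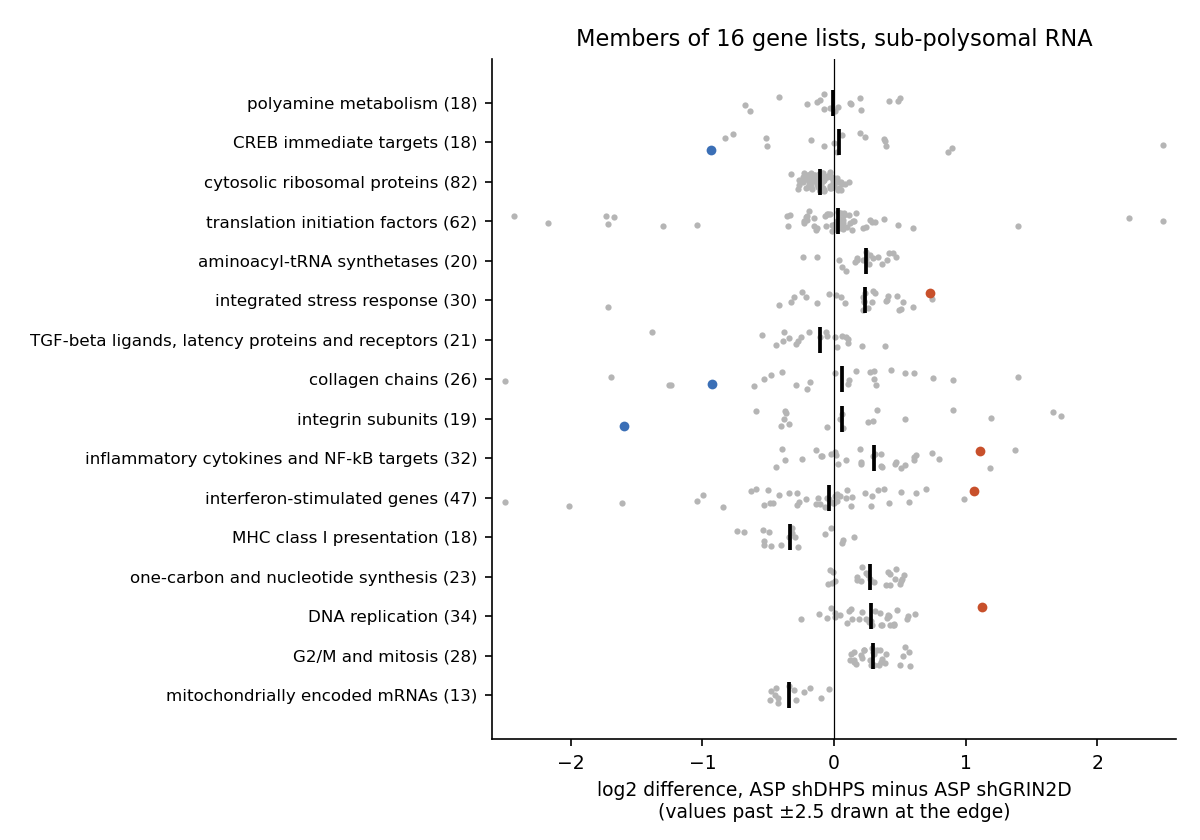
Log2 difference, ASP shDHPS minus ASP shGRIN2D, of every tested member (points) of 16 gene lists, with the median as a bar and the number of members in brackets. Called members are coloured. The medians of the highest 4 lists lie between 0.28 and 0.30, and those of MHC class I presentation and mitochondrially encoded mRNAs at −0.33 and −0.34.

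Interleukins, chemokines and antigen presentation genes were read next. Of 32 cytokines and targets of NF-κB, Il1a rose (0.366% of all genes) and none fell (0.563%). Of the list 10 had an unadjusted p under 0.05, all higher (5.45% of all genes), and the median was 0.30. DESeq2 called 4 higher (143 of all genes). With the block 7 were called higher (2.31% of all genes), among them the neutrophil chemokine Cxcl1 (0.62), the growth factor Csf3 (0.61), Cxcl16 (0.61) and complement C3 (0.54). Without ASP shGRIN2D replicate 2 the list had 4 calls, all higher. Ptgs2, the most abundant member, differed by 0.01 (SE 0.18). Of 47 interferon-stimulated genes Ifit2 rose (1.06, beside 0.366% of all genes) and none fell (0.563%), with a median of −0.04. With the block 1 other gene was called lower (2.22% of all genes). Ifitm3, the most abundant of them, differed by −0.42 and was not called.

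No gene of MHC class I presentation was called in edgeR, and DESeq2 called 2 lower (175 of all genes). Of 18 genes, 9 had an unadjusted p under 0.05 and all 9 were lower (923 of all genes, 5.2%), and the median was −0.33. With total counts alone 4 of the 18 were lower at that threshold, and 615 of all genes. The summed level was 2076, 1774, 1680 and 2014 CPM in ASP shGRIN2D and 1394, 1376, 1536 and 1594 CPM in ASP shDHPS, without overlap. With the block 6 were called lower (2.22% of all genes), including the class I heavy chain H2-D1 (−0.53), the immunoproteasome subunit Psmb8 (−0.54) and the peptide transporter Tap1 (−0.68). Class I genes are close copies, and their reads may have been divided among them. B2m, the shared light chain and the most abundant member, differed by −0.32 (SE 0.17, adjusted p = 0.522 in edgeR).

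Among 24 genes of the antioxidant response and iron storage, Slc40a1, the iron exporter ferroportin, fell by 0.82 (0.563% of all genes were called lower). That call was kept only without ASP shDHPS replicate 1 or ASP shGRIN2D replicate 1 or 2 (adjusted p 0.0655 to 0.125 in the other 5 fits). None of 18 genes of aspartate metabolism, 22 of the hypoxia response, 19 of glycolysis, 24 of cholesterol synthesis, 14 of fatty acid synthesis or 37 proteasome subunits was called. With the block 3 genes of aspartate metabolism, 1 of cholesterol synthesis and 1 proteasome subunit were called higher (2.31% of all genes). The block also called 1 proteasome subunit lower (2.22% of all genes), and of the 24 antioxidant and iron genes 2 higher and 3 lower. DESeq2 called 1 cholesterol gene higher and 1 proteasome subunit lower. The 13 mitochondrially encoded mRNAs all had negative differences (8680 of all 17757 genes had positive ones), with a median of −0.34, and none was called. Their summed level was 48152 to 101250 CPM in ASP shGRIN2D and 49321 to 76592 CPM in ASP shDHPS, ranges that overlapped.

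No marker of cells other than 4T1 was called in edgeR. Of 7 immune markers 3 were in the table, with a summed level of 9.21 ± 2.13 CPM (SD, n = 4) in ASP shDHPS and 8.34 ± 2.06 CPM (SD, n = 4) in ASP shGRIN2D, nearly all of it Cd68. Cd3e, Adgre1 and Itgam were among those not in the table. Of 4 endothelial markers Pecam1 alone was present, at a mean of 0.159 CPM, and of 5 fibroblast markers Pdgfra alone, at a mean of 10.4 CPM. Of 4 adipocyte and erythroid markers the hemoglobin gene Hba-a1 was present, at 0.386 ± 0.0487 CPM (SD, n = 4) in ASP shGRIN2D and 0.0123 ± 0.0246 CPM (SD, n = 4) in ASP shDHPS. Its groups did not overlap (adjusted p = 0.107 in edgeR), and DESeq2 called it lower.

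The same contrast in the polysomal libraries of these pellets gave 21 calls (0.118%), 7 higher (0.0394%) and 14 lower (0.0788%). A fit with the replicate block gave 803 calls there (233 higher, 570 lower) and DESeq2 153 (38 higher, 115 lower). A filter on low counts left 7 (3 higher, 4 lower). The count of 21 fell to between 2 and 5 without ASP shDHPS replicate 2, 3 or 4 or ASP shGRIN2D replicate 3, and was 38 without ASP shGRIN2D replicate 2. Of the genes called in sub-polysomal RNA, 57 of the 65 higher and 98 of the 100 lower had the same sign in polysomal RNA, and 6 and 10 were called there too. In the polysomal fraction the differences were −1.64 for Dhps, −4.85 for Ly6d, −1.19 for Mgp, −1.29 for Odf3l1, 1.78 for Prnd and 1.46 for Ccne1, and all 6 were called. Ly6c1 (−1.81), Gas7 (−1.89), Tns1 (−1.83), Gper1 (−1.79), Cyp1b1 (−1.20) and Chac1 (1.29) were also called in both fractions, and Gas7, Gper1 and Cyp1b1 are named for that reason. Chmp5 differed by 0.98 in sub-polysomal and by −0.22 in polysomal RNA, yet the difference between the fractions was not called (adjusted p = 0.147 in edgeR). Some list medians had another size or sign in polysomal than in sub-polysomal RNA. They were 0.232 against −0.104 for cytosolic ribosomal proteins, −0.211 against 0.053 for CREB factors and −0.529 against −0.105 for TGF-β ligands and receptors. For MHC class I they were −0.161 against −0.333 and for NF-κB targets 0.358 against 0.304. G2/M genes had 0.184 against 0.298 and DNA replication genes 0.261 against 0.283.

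No gene was called for a difference of the contrast between fractions, in a fit of the 16 libraries with a term for each pellet. At an unadjusted p under 0.05 there were 1161 genes (6.54%), 250 with a higher (1.41%) and 911 with a lower (5.13%) polysomal to sub-polysomal ratio in ASP shDHPS. With the replicate block 476 were called, 55 and 421. DESeq2 called 9. With 1 pellet left out the count stayed at 0 without ASP shDHPS replicate 3 or 4, and was 4 to 40 without any of the other 6, highest without ASP shGRIN2D replicate 1. None of the 165 genes was thus shown, in the fit with all pellets and without the block, to differ in its contrast between the fractions.

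**Figure D5:**
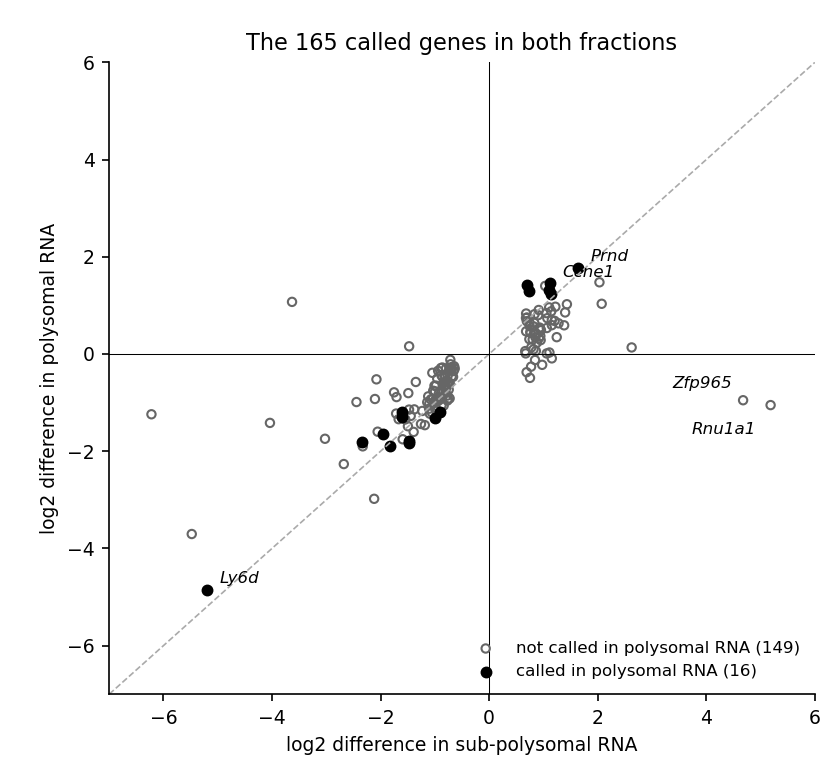
Log2 difference, ASP shDHPS minus ASP shGRIN2D, of the 165 genes called in sub-polysomal RNA (x axis) and the same difference in polysomal RNA of the same pellets (y axis). The 16 genes called in both are filled, the dashed line marks equal differences, and 10 genes, including Rnu1a1 and Zfp965, have opposite signs.

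The scramble control gives each knockdown's own difference for these genes. In a common fit of 12 sub-polysomal libraries, 261 genes (1.47%) were called between ASP shDHPS and ASP shSCR, 82 higher (0.462%) and 179 lower (1.01%). Between ASP shGRIN2D and ASP shSCR 57 (0.321%) were called, 19 higher (0.107%) and 38 lower (0.214%). With the replicate block these counts were 717 and 197, and by DESeq2 614 and 208. The former count was 94 to 166 without any 1 ASP shDHPS library or ASP shSCR replicate 1 or 2, and the latter was 28 to 35 without ASP shGRIN2D replicate 3 or 4 or ASP shSCR replicate 2. These contrasts share the scramble libraries with each other, and the knockdown libraries with the contrast that picked the 165 genes. Agreement in direction with that contrast is thus favoured by the choice of genes. By the calls without the block, 54 of the 165 genes were called in ASP shDHPS in the direction of their difference, 26 were called in ASP shGRIN2D in the opposite direction, and 1 of these, Ly6d, was in both. For 86 neither was called.

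Ly6d was at 0.908, 2.10, 1.86 and 0.959 CPM in ASP shSCR, between the knockdowns, and differed from it by −2.75 in ASP shDHPS and by 2.44 in ASP shGRIN2D. The called neighbours given here other than Slurp1 had the signs of Ly6d, but none of them was called in both knockdowns. Slurp1 differed from ASP shSCR by 1.30 in ASP shDHPS and by 3.40 in ASP shGRIN2D, and Ly6e by −0.02 and 0.77. Lynx1 differed by −1.46 and 0.86, Ly6a by −1.04 and 0.32 and Ly6c1 by −1.89 and 0.43. Gm28502 differed by −3.90 and 0.13, and Ly6g2 by −1.09 and 0.02. For other genes a difference from the control was called in 1 knockdown and not in the other. Ace differed from ASP shSCR by −1.58 in ASP shDHPS (adjusted p = 0.000287) and by −0.10 in ASP shGRIN2D, and Ncmap by −1.61 and 0.04. Prnd differed by 1.20 in ASP shDHPS (adjusted p = 0.000287 in edgeR) and by −0.44 in ASP shGRIN2D, and Il1a by 0.87 and −0.25. Conversely, Agps differed by 0.22 in ASP shDHPS and by −0.95 in ASP shGRIN2D (adjusted p = 0.00169, edgeR).

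Pi4k2b, Gng5 and Ccng1 differed from the control by −0.02, 0.01 and 0.22 in ASP shDHPS and by −0.99, −0.91 and −0.95 in ASP shGRIN2D. Odf3l1, Cspg4, Asic1 and Chdh differed by 1.32, 1.87, 2.33 and 1.20 in ASP shGRIN2D, all called, and by −0.27, 0.17, 0.29 and −0.02 in ASP shDHPS. Asic1, a proton-gated sodium channel chosen here after its values were seen, was at 5.39, 3.91, 5.43 and 5.49 CPM in ASP shGRIN2D and at 1.28, 1.28, 0.935 and 1.36 CPM in ASP shDHPS. In ASP shSCR it was at 1.18, 0.601, 1.08 and 1.02 CPM, close to the Dhps knockdown. Mgp lay between, with −0.80 in ASP shDHPS (adjusted p = 0.0287) and 0.79 in ASP shGRIN2D (adjusted p = 0.0656, edgeR).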

How the data were processed

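The authors made the deposited counts: reads were trimmed with Trim Galore 0.6.6, mapped to GRCm39 with STAR 2.6.1, quantified per gene with Salmon 1.4.0 and rounded, and genes lacking expression in at least 3 of 4 replicates of every group were removed. The deposited tables of the authors' own comparisons (differences in translation, gene set scores) were not used, and their gene set file served for set membership only.

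The 8 sub-polysomal libraries were scaled by TMM and tested in edgeR 4.0.16 (quasi-likelihood, two-sided, Benjamini-Hochberg over 17757 genes, threshold 0.05) under R 4.3.3. SE is the difference divided by the square root of F. Alternatives were RLE, upper-quartile and total-count scaling, a filter on low counts, DESeq2 1.42.0, a robust fit, a fit of 16 libraries, a replicate block, and each library left out. Library totals limit genes under about 1 CPM to some 20 reads. Whether pellets came from separate cultures is stated only as independent pellets.

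Replicate numbers are shared by the groups. Deviations from the group means correlated between same-numbered libraries (r = 0.425, 0.308, 0.216 and 0.495 over 9919 genes), so blocked counts are given beside each list where they differ. None of the 12 pairs of libraries within a group agreed within sampling noise. The steps were tested on simulated data. The comparison, the gene lists and the promoters shown were chosen with earlier results of these data known. Genes were named by rule: the targets and hypusine genes, per direction the 12 largest changes at a mean of at least 5 CPM and the 6 of smallest p at a mean of at least 50 CPM, without overlap, and up to 4 called members and the most abundant member of each list. Some genes that this rule names are not reported here.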

Additional observations from a re-analysis of the deposited data

Results flagged for a closer look

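Of 186 groups of 4 values (the named genes and 5 library measures, in each knockdown), 10 held a sample whose gap to the nearest other, relative to the range, exceeded Dixon's 95% critical value, where chance gives about 1 in 20. In ASP shGRIN2D, Agps was lowest in replicate 1 (36.1 CPM, the others 44.1 to 45.7), Il1a was highest in replicate 2 (87.8 CPM, the others 61.0 to 64.7), and Smad3, a mediator of TGF-β signals, was lowest in replicate 2 (161 CPM, the others 268 to 284). Zfp965 was at 0.196 CPM in replicate 3 and at 0 in the others, and replicate 1 had the most genes with a read (16199, the others 15697 to 15724) along with the largest total. In ASP shDHPS, replicate 1 was highest for Arhgap29 (11.9 CPM, the others 5.81 to 6.84), for Ppib, a collagen-folding isomerase (1010.0 CPM, the others 772 to 777), and for the noncoding RNA Norad (398 CPM, the others 237 to 256). Chdh was highest in replicate 3 (5.31 CPM, the others 3.85 to 4.08), where Hba-a1 had its single nonzero value (0.0492 CPM).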

How the results depend on the processing

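With the replicate block, calls were 806 for sub-polysomal RNA, 803 for polysomal RNA, 476 for the difference between fractions, and 717 (ASP shDHPS) and 197 (ASP shGRIN2D) against the scramble control. In polysomal RNA same-numbered libraries correlated less evenly (r = 0.739, 0.677, −0.0948 and 0.196), 3 of the 4 being over 0.1, so pairing was not taken as shown in that fraction. DESeq2 called 318, 153, 9, 614 and 208 in the same order, 161 of the 318 being among the 165. A filter on low counts left 7 polysomal calls. With 1 library left out, counts ran from 103 (without ASP shDHPS replicate 3) to 196 (without ASP shGRIN2D replicate 2), 2 to 38, 0 to 40, 94 to 352 and 28 to 60. RLE, upper-quartile and total-count scaling, the robust fit, the 16-library fit and the low-count filter gave 129 to 207 sub-polysomal calls. None of the 42 called genes named by rule changed sign in any of these settings.

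Signs turned for differences close to 0. With total counts alone these were Eif5a (0.0246), Eif5a2 (0.0154), Oaz1 (0.0337), Cox4i1 (0.0395), Impdh2 (0.0463) and Psmd8 (0.0484), Psmd8 also in the 16-library fit (0.00556) and with the replicate block (0.00754), and Ptgs2 with upper-quartile factors (-2.99e-05). With 1 library left out, the range crossed 0 for Atf4 (−0.051 to 0.0909), Cd68 (−0.0322 to 0.265), Cox4i1 (−0.0913 to 0.0879), Eif5a (−0.128 to 0.0996), Eif5a2 (−0.218 to 0.0517), Gapdh (−0.0456 to 0.103), Impdh2 (−0.100 to 0.0691), Itga3 (−0.0425 to 0.202), Junb (−0.0941 to 0.143), Krt8 (−0.0365 to 0.203), Ltbp3 (−0.0549 to 0.227), Mrpl12 (−0.177 to 0.0905), Oaz1 (−0.144 to 0.0798), Pcna (−0.0371 to 0.224), Psmd8 (−0.112 to 0.134) and Ptgs2 (−0.119 to 0.216). The cause of these moves was not tested. Medians of the lists for DNA replication, G2/M, nucleotide synthesis, NF-κB, MHC class I, tRNA synthetases and the stress response kept their sign under RLE, upper-quartile and total-count scaling, DESeq2 and without ASP shGRIN2D replicate 2, alternatives chosen after seeing the data. Without that library medians changed sign for the collagen, integrin, ribosomal protein, CREB target and CREB factor (0.05 to −0.05) lists, and for interferon-stimulated, cholesterol, respiratory chain, polyamine and noncoding RNA genes.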

Other observations

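Several other lists held no call in edgeR with all 8 libraries and without the block. These were 18 endoplasmic reticulum chaperones, 19 epithelial and 11 mesenchymal state genes, 24 feedback genes of the ERK pathway and 29 MYC and nucleolar genes. The others were 30 endosome, lysosome and autophagy genes, 91 nuclear respiratory chain subunits and 78 mitochondrial ribosomal proteins. With the block 1 epithelial gene was called higher and 2 lower, 1 mesenchymal, 1 ERK feedback and 1 respiratory chain gene lower, and 2 MYC and nucleolar and 2 endosome genes higher. DESeq2 called 1 mesenchymal and 1 ERK feedback gene lower. Without ASP shGRIN2D replicate 2, 1 mesenchymal gene was called lower, and that list's median moved from −0.13 to −0.22. Of all genes, 0.366% were called higher and 0.563% lower, 5.45% and 5.2% had an unadjusted p under 0.05 in these directions, and the block called 2.31% and 2.22%. Beside these shares, among the Hallmark lists, 4 of 190 p53 pathway genes rose and none fell, although 26 had an unadjusted p under 0.05 in the lower direction and 14 in the higher direction, and the block called 14 lower and 8 higher. Of 176 genes of the early estrogen response 1 rose and 5 fell, with 24 lower and 10 higher at an unadjusted p under 0.05 and 15 lower and 2 higher with the block. Of 148 genes of the epithelial-mesenchymal transition list 1 rose and 4 fell, and the block called 5 higher and 10 lower. Of 196 genes of mTORC1 signaling 2 rose and none fell (median 0.13, with 22 higher and 2 lower at an unadjusted p under 0.05, and 15 higher and 1 lower with the block).

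Over 5 bins of transcript length (1973 to 1978 genes each), the median log2 difference was −0.07 in the shortest bin and −0.01 to 0.02 in the others.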
